A study of Equus asinus with 12 samples.

Results

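The fast and slow forms of the 3 troponin subunits were followed in skeletal muscle of the Dezhou donkey (Equus asinus). The members were the fast genes TNNI2, TNNT3 and TNNC2 and the slow genes TNNI1, TNNT1 and TNNC1, each taken as the locus carrying that gene name alone, and the locus with the highest mean level where several did. That rule gave 6 of 27084 loci, and all 6 were among the 12408 loci with a level of at least 1 in at least 3 libraries. RNA-seq had been performed on 12 libraries from 24-month-old animals, 3 from each strain and muscle: Wutou gluteal, Wutou longissimus dorsi, Sanfen gluteal and Sanfen longissimus dorsi. Wutou and Sanfen are strains of 1 breed, gluteal muscle covers the hip and longissimus dorsi runs along the spine. The study's stated subject was a comparison of the strains, mainly of their long non-coding RNA. Its design text gives 6 donkeys for the 12 samples, and no label ties a library to an animal, so p-values measure only the spread between libraries.

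Troponin is the calcium switch of the thin filament. Troponin C binds calcium, troponin I holds back the contact of actin and myosin until calcium arrives, and troponin T ties the complex to tropomyosin. Fast-twitch and slow-twitch fibres use separate genes for each subunit, so the balance between the gene pairs is widely read as a sign of fibre type. TNNC1 also serves the heart, whereas cardiac troponin I and T come from TNNI3 and TNNT2.

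Levels are given as FPKM, fragments per kilobase of transcript scaled to library depth, as deposited. The values summed to 214564 to 319767 FPKM per library, and the number of reads behind them is unknown, which leaves no way to give a counting interval. All 7 genes of a list that defines skeletal muscle were present, with ACTA1, the actin of this tissue, at 8714 to 13587 FPKM. TNNT2 lay between 0 and 3.44 FPKM. The locus that merges TNNI3 with DNAAF3 lay between 0.0793 and 0.358 FPKM. In bulk muscle, fewer fibres of a type and less RNA per fibre cannot be told apart. Values of loci with 2 or more transcripts were not plain sums of rounded transcript values: 0 of 9707 such loci had at most 6 decimals, against 16810 of 17377 loci with 1 transcript (96.7%). How transcripts were weighted is not given, which limits comparison of levels between genes. The second Sanfen longissimus and the first Sanfen gluteal library stood apart from the others in fibre genes and in markers of other cells.

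Fast troponin C and fast troponin I were among the most abundant RNAs of the muscle. Ranked by mean FPKM over all loci, TNNC2 was number 5 and TNNI2 number 15. The slow genes TNNC1, TNNT1 and TNNI1 ranked 35, 42 and 375. The members together held 2.37% to 5.63% of all FPKM of a library (this sum includes the locus that merges TNNT3 with LSP1).

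TNNI2, the fast inhibitory subunit, had 1953, 2738 and 2988 FPKM in Wutou gluteal muscle and 2945, 3004 and 2949 FPKM in Wutou longissimus. It had 1217, 2085 and 1973 FPKM in Sanfen gluteal muscle and 1682, 722 and 2212 FPKM in Sanfen longissimus. The Wutou longissimus libraries lay within a coefficient of variation of 1.11%, against 49.1% in Sanfen longissimus. All 3 of them stood above every Sanfen library.

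TNNC2, the fast calcium-binding subunit, had 6849, 9596 and 10462 FPKM in Wutou gluteal muscle and 9015, 9846 and 11474 FPKM in Wutou longissimus. Its levels were 5163, 8311 and 8265 FPKM in Sanfen gluteal muscle and 9543, 3211 and 9054 FPKM in Sanfen longissimus. The groups overlapped, and the lowest library was again the second of Sanfen longissimus. This single gene held between 1.24% of all FPKM in that library and 4.13% in the first of Sanfen longissimus.

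TNNT3, the fast tropomyosin-binding subunit, was not captured by the locus that bears its name alone. That locus (MSTRG.17342) is a single assembled transcript with 2.07, 0 and 1.88 FPKM in Wutou gluteal, 1.23, 0 and 1.24 FPKM in Wutou longissimus, 0.473, 1.85 and 5.43 FPKM in Sanfen gluteal and 0, 0.606 and 0.506 FPKM in Sanfen longissimus. It was listed at 0 in 3 of 12 libraries and ranked 8270 among all loci. The transcripts with a reference accession found under TNNT3 sit instead in a locus of 36 transcripts (MSTRG.17345) merged with LSP1, a leukocyte gene. Of these 36, 28 carry a RefSeq accession, and 5 of those accessions are in the RefSeq annotation used here, 3 under TNNT3 and 2 under LSP1. In the RefSeq annotation EquAss-T2T_v2, LSP1 lies between TNNI2 and TNNT3, with PRR33 as the only other protein-coding gene between them.

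The merged locus had 396, 565 and 501 FPKM in Wutou gluteal muscle and 507, 517 and 635 FPKM in Wutou longissimus. It had 279, 578 and 386 FPKM in Sanfen gluteal muscle and 500.4, 155 and 659 FPKM in Sanfen longissimus. Its ranking was 55, and the lowest library was the same as for TNNI2 and TNNC2. The 6 macrophage and leukocyte markers found in the table summed to 10.3 to 30.8 FPKM per library, with C1QB, a complement gene of macrophages, at 2.44 to 15 FPKM and PTPRC, the common leukocyte antigen, at 0.303 to 0.969 FPKM. The share of LSP1 in the merged value was not tested. The merged locus is given beside TNNT3 throughout, a choice made after its values were seen.

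The slow genes were spread differently. TNNI1, the slow inhibitory subunit, had 19.3, 29.8 and 20.9 FPKM in Wutou gluteal muscle and 19.2, 46.7 and 20.9 FPKM in Wutou longissimus. Its levels in Sanfen were 56.2, 38.2 and 30.7 FPKM in gluteal muscle and 21.2, 115 and 27.3 FPKM in longissimus. The highest library was the second of Sanfen longissimus, the same library in which TNNI2, TNNC2 and the merged TNNT3 locus were lowest. TNNI1 had the widest span of these loci, a 6.0-fold ratio of highest to lowest library, against 3.47-fold to 4.24-fold for TNNI2, TNNC2, the merged locus, TNNT1 and TNNC1.

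TNNT1, the slow tropomyosin-binding subunit, had 407, 479 and 409.9 FPKM in Wutou gluteal muscle and 345, 636 and 549.7 FPKM in Wutou longissimus. It had 1420.1, 579.9 and 773 FPKM in Sanfen gluteal muscle and 393, 1117 and 609 FPKM in Sanfen longissimus. The first Sanfen gluteal library was the highest. Every Sanfen gluteal library lay above every Wutou gluteal library.

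TNNC1, the slow calcium-binding subunit, had 546, 523 and 639 FPKM in Wutou gluteal muscle and 567, 1216 and 846 FPKM in Wutou longissimus. It had 1816, 906 and 809 FPKM in Sanfen gluteal muscle and 587, 817 and 839.6 FPKM in Sanfen longissimus. The first Sanfen gluteal library was the highest here too, and the gluteal groups of the strains did not overlap. When the 4 groups were put in order of their means, every member's neighbouring groups overlapped.

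**Figure D1:**
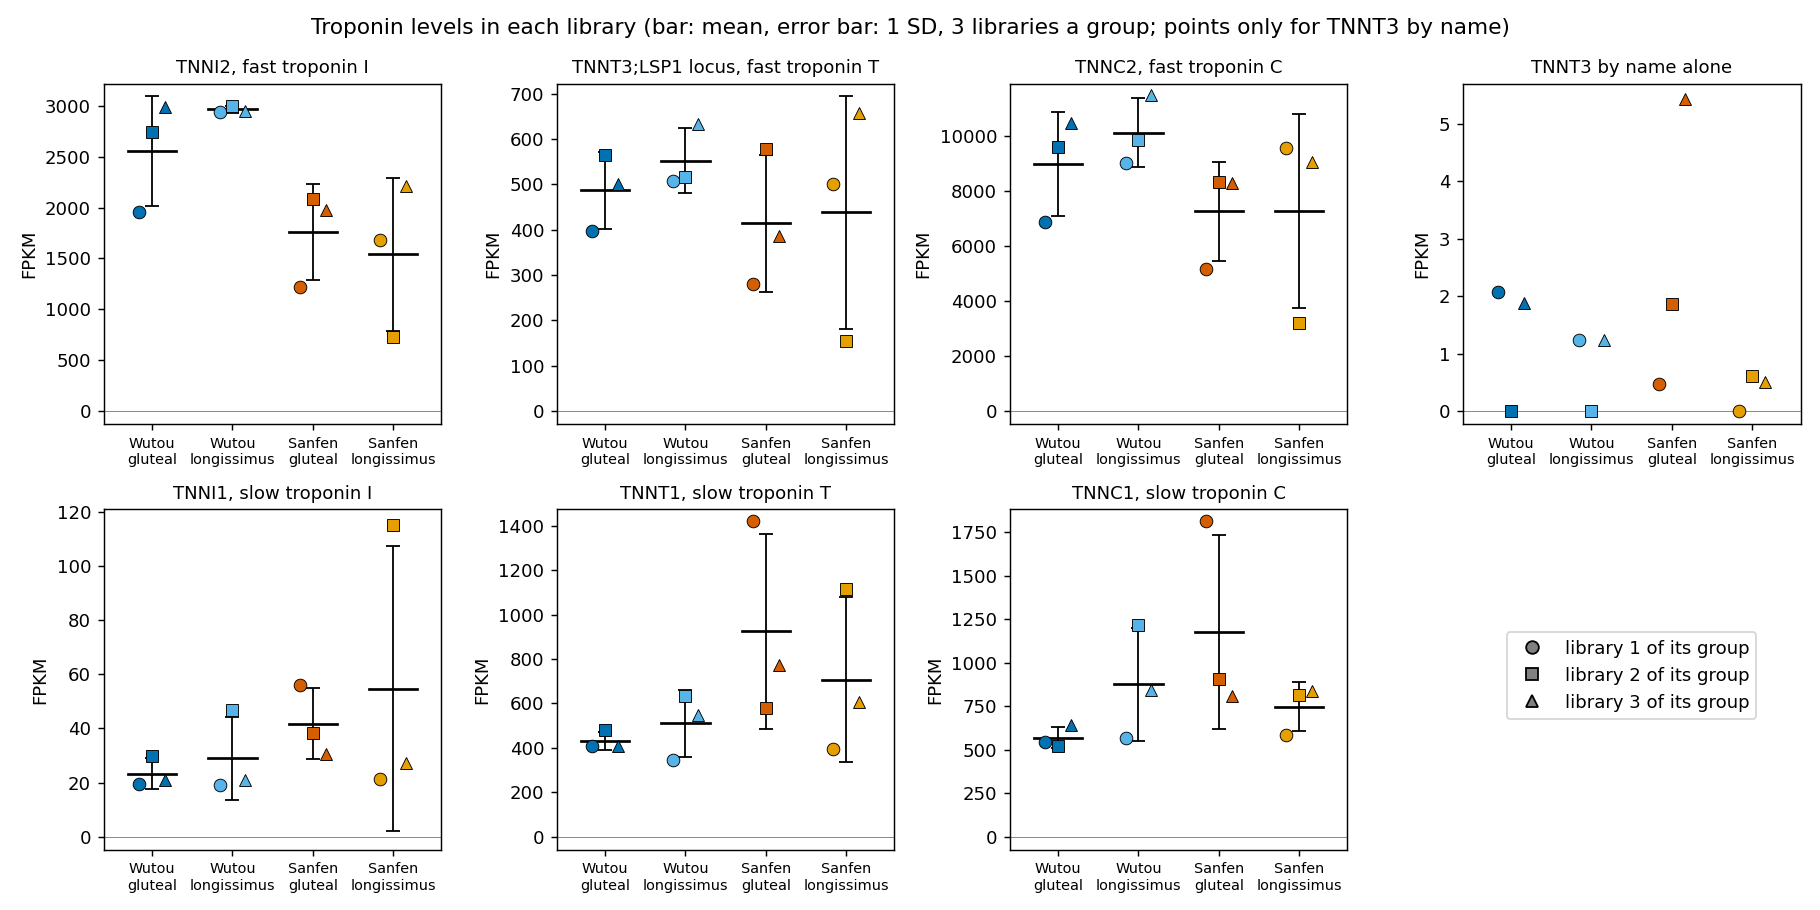
FPKM of each troponin locus (vertical axis) in the 12 libraries by strain and muscle (horizontal axis), with marker shape for the library number within its group, black bars for means and error bars for 1 SD of 3 libraries (points only for the TNNT3 locus by name). The second Sanfen longissimus library is lowest for TNNI2, TNNC2 and the merged TNNT3 locus and highest for TNNI1 at 115 FPKM, and the first Sanfen gluteal library is highest for TNNT1 and TNNC1.

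Those libraries stood apart in more than the troponins. The second Sanfen longissimus library had the lowest sum of the other fast fibre genes, 3721 FPKM or 0.491 times the median library, and the highest sum of satellite cell and regenerating fibre markers, 12.4 FPKM or 2.85 times the median. Of that marker sum, CHRNA1 gave 7.51 FPKM, NCAM1 3.05 FPKM, MYF5 1.85 FPKM and CHRNG 0.0116 FPKM. NCAM1 is also in the nerve list, and PAX7, MYH3, MYH8 and MYMK were not found by name. The first Sanfen gluteal library had the highest sum of the other slow fibre genes, 6790.2 FPKM or 1.59 times the median. Its marker sums for tendon (292 FPKM, 1.90 times the median), adipocytes (54.7 FPKM, 2.03 times) and smooth muscle (139 FPKM, 1.60 times) were also the highest of the 12. So were its sums of skeletal muscle defining genes (32192 FPKM, 1.19 times) and of macrophage and leukocyte markers (30.8 FPKM, 1.32 times). THBS4 alone gave 121 FPKM of the tendon sum, and PLIN4 alone gave 42.8 FPKM of the adipocyte sum. All other adipocyte markers except FABP4 were higher in the second Sanfen longissimus library. What part these markers have in the troponin levels was not tested, and the main troponin and gene list values between strains are given with and without both libraries.

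The balance of the forms differed by subunit. On the log2 scale, the ratio of TNNI2 to TNNI1 averaged 6.78 ± 0.34 in Wutou gluteal, 6.80 ± 0.69 in Wutou longissimus, 5.40 ± 0.85 in Sanfen gluteal and 5.10 ± 2.12 in Sanfen longissimus (SD, n = 3 each). As a linear ratio it ran from 6.26 in the second Sanfen longissimus library to 153 in Wutou longissimus. Fast troponin I thus exceeded the slow form in all 12 libraries.

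The log2 ratio of TNNC2 to TNNC1 averaged 3.96 ± 0.28 in Wutou gluteal, 3.59 ± 0.51 in Wutou longissimus, 2.69 ± 1.02 in Sanfen gluteal and 3.14 ± 1.05 in Sanfen longissimus (SD, n = 3 each). Linear ratios were 2.84 to 18.3, again with the fast form ahead in every library. Troponin T, read from the merged TNNT3 locus, was closer to equal FPKM. That locus also holds LSP1 transcripts, and how its transcripts were weighted is not given. How far this moves the ratio was not tested. The log2 ratio of the merged TNNT3 locus to TNNT1 averaged 0.16 ± 0.18 in Wutou gluteal, 0.15 ± 0.43 in Wutou longissimus, -1.12 ± 1.17 in Sanfen gluteal and -0.79 ± 1.78 in Sanfen longissimus (SD, n = 3 each). Single libraries reached -2.35 in the first of Sanfen gluteal and -2.85 in the second of Sanfen longissimus.

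**Figure D2:**
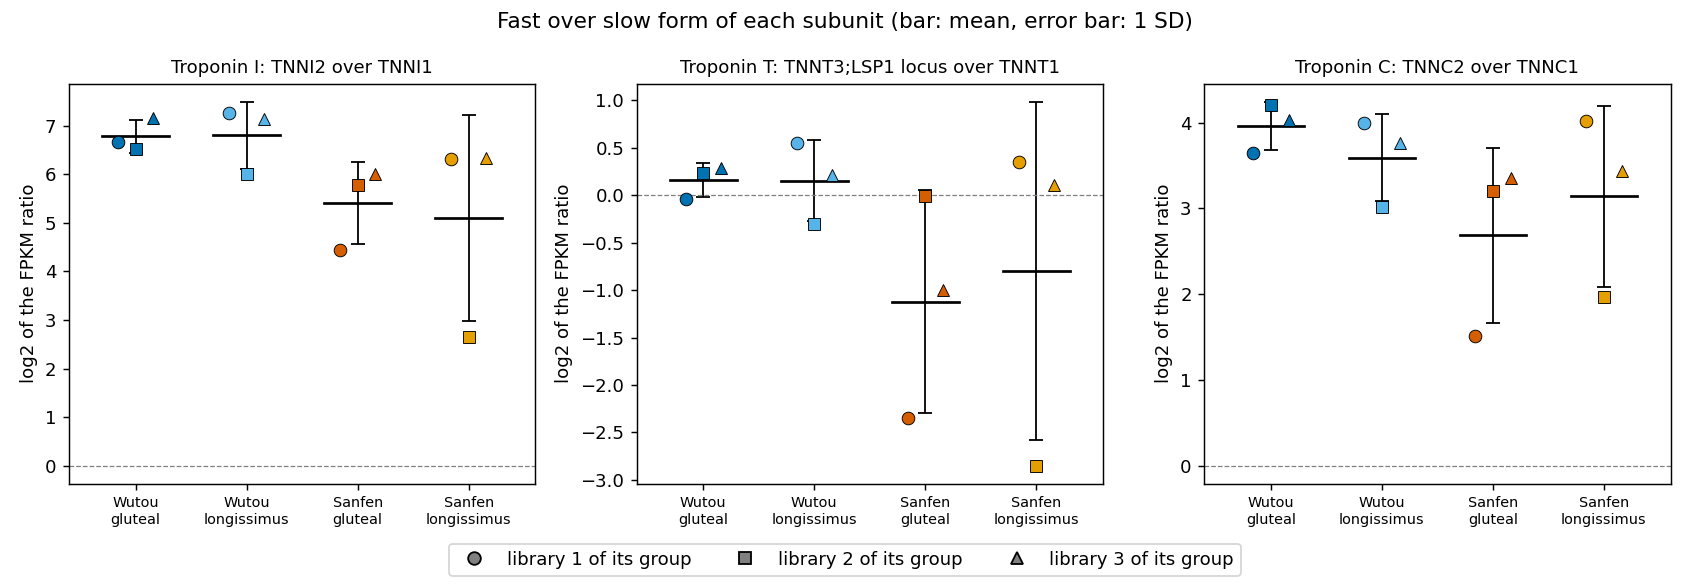
log2 of the FPKM ratio of the fast to the slow form (vertical axis) for troponin I, troponin T (merged TNNT3 locus) and troponin C in the 4 groups, with points for libraries, bars for means and error bars for 1 SD of 3 libraries. The dashed line marks equal FPKM, around which troponin T lies, while troponin I reaches 7.26 and troponin C 4.20. The merged locus also holds LSP1 transcripts, whose share in its value was not tested.

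The fast share, the sum of TNNI2, TNNT3 and TNNC2 as a percent of the FPKM of the 6 members, was 90.1, 92.3 and 92.6% in Wutou gluteal muscle and 92.8, 87.1 and 91.1% in Wutou longissimus. It was 66.0, 87.2 and 86.4% in Sanfen gluteal muscle and 91.8, 65.8 and 88.4% in Sanfen longissimus. TNNC2 dominates this sum. The gluteal groups of the strains did not overlap, with means of 91.7 ± 1.40% in Wutou and 79.9 ± 12% in Sanfen (SD, n = 3 each). Without the first Sanfen gluteal library the Sanfen mean was 86.8%, and leaving a library out cannot bring separate groups to overlap. In longissimus the means were 90.3 ± 2.89% in Wutou and 82.0 ± 14.2% in Sanfen (SD, n = 3 each), with overlap, and the Sanfen mean was 90.1% without its second library. The TNNI2 to TNNI1 and TNNC2 to TNNC1 ratios of the gluteal groups did not overlap either, whereas the troponin T ratios did overlap. No test was run on these shares and ratios.

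**Figure D3:**
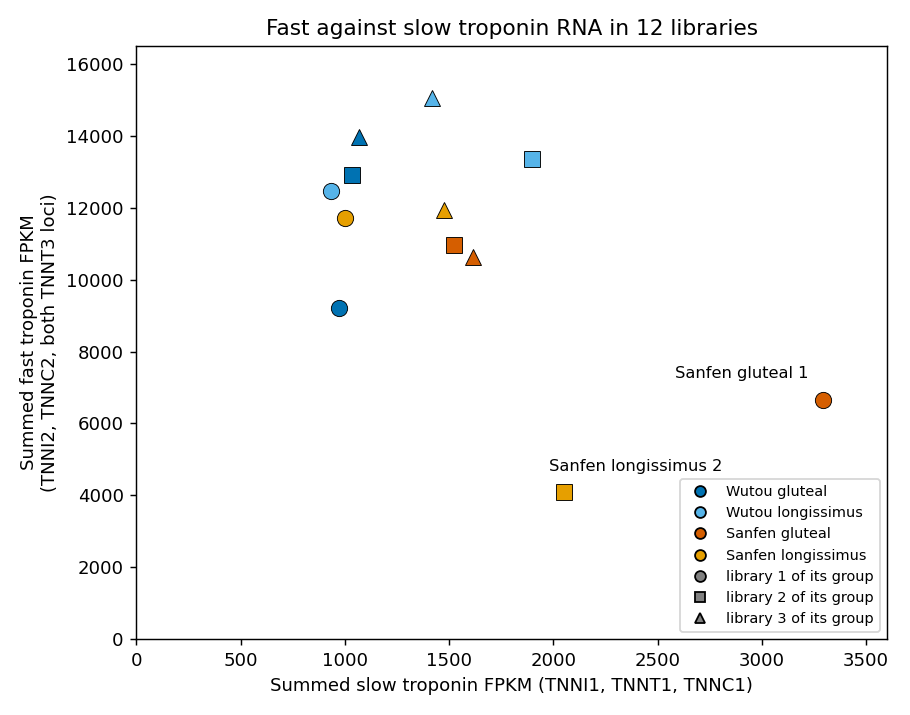
Summed FPKM of the fast troponin loci (vertical axis, both TNNT3 loci included) against summed FPKM of TNNI1, TNNT1 and TNNC1 (horizontal axis) for the 12 libraries, with colour for the group and marker shape for the library number within its group. The second Sanfen longissimus library lies lowest, at 4089 fast and 2049 slow FPKM, and the first Sanfen gluteal library farthest right, at 3292 slow FPKM.

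Gluteal muscle was first set against longissimus within each strain, which asks whether the muscles differ in fibre type genes. None of the 6 members passed an adjusted p of 0.05 in limma in either strain, and none had an unadjusted p under 0.05. Over all loci, 0.0242% were called in Sanfen and 0% in Wutou, and 3.57% in Sanfen and 5.68% in Wutou had an unadjusted p under 0.05. Averaged over strains, no member met either limit, against 0% and 6.56% of all loci. In Sanfen the fitted log2 change of TNNC1 was 0.57 (95% interval -0.19 to 1.34), that of TNNT1 was 0.42 (-0.49 to 1.32) and that of TNNI2 was 0.30 (-0.52 to 1.12). TNNC2 had 0.12 (-0.72 to 0.96), TNNI1 -0.01 (-1.21 to 1.19), TNNT3 1.16 (-0.05 to 2.37) and the merged locus 0.09 (-0.91 to 1.10). All these intervals include 0 and reach changes of about a log2 unit, so changes of that size lie within them.

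In Wutou the fitted log2 changes between gluteal and longissimus ran from -0.56 for TNNC1 (95% interval -1.32 to 0.20) to 0.28 for TNNT3 (-0.94 to 1.49), and the intervals of all 6 members and the merged locus include 0. The muscle groups overlapped for all 6 members in both strains. Among all loci, groups did not overlap for 7.54% in Sanfen and 12.9% in Wutou. With both libraries that stood apart left out, Sanfen gluteal lay above Sanfen longissimus for TNNI1 and TNNT3 (23.6% of all loci) and below it for TNNC2 (10.2% of all loci), with 2 libraries left in each group.

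The other fibre genes gave a like picture between muscles. Of 9 other fast fibre genes tested, 5 had a fitted change above 0 in Sanfen (median log2 change 0.00) and 1 in Wutou (median -0.28). Of 14 other slow fibre genes, 7 had one in Sanfen (median 0.01) and 3 in Wutou (median -0.20). Over all loci, 67.6% had a change above 0 in Sanfen (median 0.08) and 58.6% in Wutou (median 0.05), and no gene of either list was called. The genes with the smallest p included the slow fibre stretch-response gene ANKRD2 in Sanfen (log2 change -2.11, unadjusted p = 0.0395, limma adjusted p = 1.0) and MYBPC1, slow myosin-binding protein C, in Wutou (0.68, unadjusted p = 0.0254, limma adjusted p = 0.870). Among thin filament partners, LMOD3, a nucleator of actin filaments, had a log2 change of 0.72 in Wutou (unadjusted p = 0.0268, limma adjusted p = 0.870).

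Wutou was then set against Sanfen. In longissimus, TNNI2 averaged 2966 ± 32.8 FPKM in Wutou and 1539 ± 755 FPKM in Sanfen (SD, n = 3 each), without overlap. The fitted log2 change was 1.09 ± 0.38 (SE, 95% interval 0.27 to 1.91), with an unadjusted p of 0.0136 and a limma adjusted p of 0.854, so it did not pass. Its p ranked 167 among 12408 loci. Without both libraries that stood apart, the change was 0.62.

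TNNI2 was the only member without overlap between the strains in longissimus. Over all loci, Wutou lay above Sanfen without overlap for 3.88%, and for 11.4% with those libraries left out. The other members spread around 0. TNNC2 had a log2 change of 0.63 (95% interval -0.21 to 1.46), the merged TNNT3 locus 0.56 (-0.44 to 1.57), TNNT3 0.35 (-0.86 to 1.56), TNNI1 -0.60 (-1.80 to 0.61), TNNT1 -0.38 (-1.28 to 0.52) and TNNC1 0.18 (-0.58 to 0.94). Without both libraries these values were 0.11 for TNNC2, -0.06 for the merged locus, 0.14 for TNNI1, 0.02 for TNNT1 and 0.25 for TNNC1. None of the 6 members was called, against 0.0161% of all loci, and 1 had an unadjusted p under 0.05, against 5.52%.

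In gluteal muscle all 3 slow genes lay lower in Wutou than in Sanfen without overlap. TNNC1 averaged 569.6 ± 61.5 FPKM in Wutou and 1177 ± 556 FPKM in Sanfen (SD, n = 3 each), a log2 change of -0.95 ± 0.35 (SE, 95% interval -1.71 to -0.19, unadjusted p = 0.0183, limma adjusted p = 0.963). TNNT1 averaged 432 ± 40.9 FPKM in Wutou and 924 ± 440.0 FPKM in Sanfen (SD, n = 3 each), a log2 change of -1.0 ± 0.41 (SE, 95% interval -1.90 to -0.09, unadjusted p = 0.0335, limma adjusted p = 0.963). TNNI1 averaged 23.3 ± 5.69 FPKM in Wutou and 41.7 ± 13.1 FPKM in Sanfen (SD, n = 3 each), a log2 change of -0.79 (95% interval -2.0 to 0.41).

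None of the 6 members passed the adjusted threshold, which 0.00806% of all loci did, and 2 had an unadjusted p under 0.05, against 4.86%. The Wutou group lay below Sanfen without overlap for 8.68% of all loci, and the median log2 change over all loci was -0.09. Without the libraries that stood apart the log2 changes were -0.59 for TNNC1, -0.63 for TNNT1 and -0.56 for TNNI1. Leaving libraries out cannot bring separate groups to overlap, so the 3 slow genes had to stay without overlap there. Over all loci, 13.2% then lay below without overlap. For the fast genes the intervals include 0: TNNI2 had a log2 change of 0.56 (-0.26 to 1.38), TNNC2 0.32 (-0.52 to 1.16), the merged locus 0.28 (-0.73 to 1.29) and TNNT3 -0.54 (-1.75 to 0.68).

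**Figure D4:**
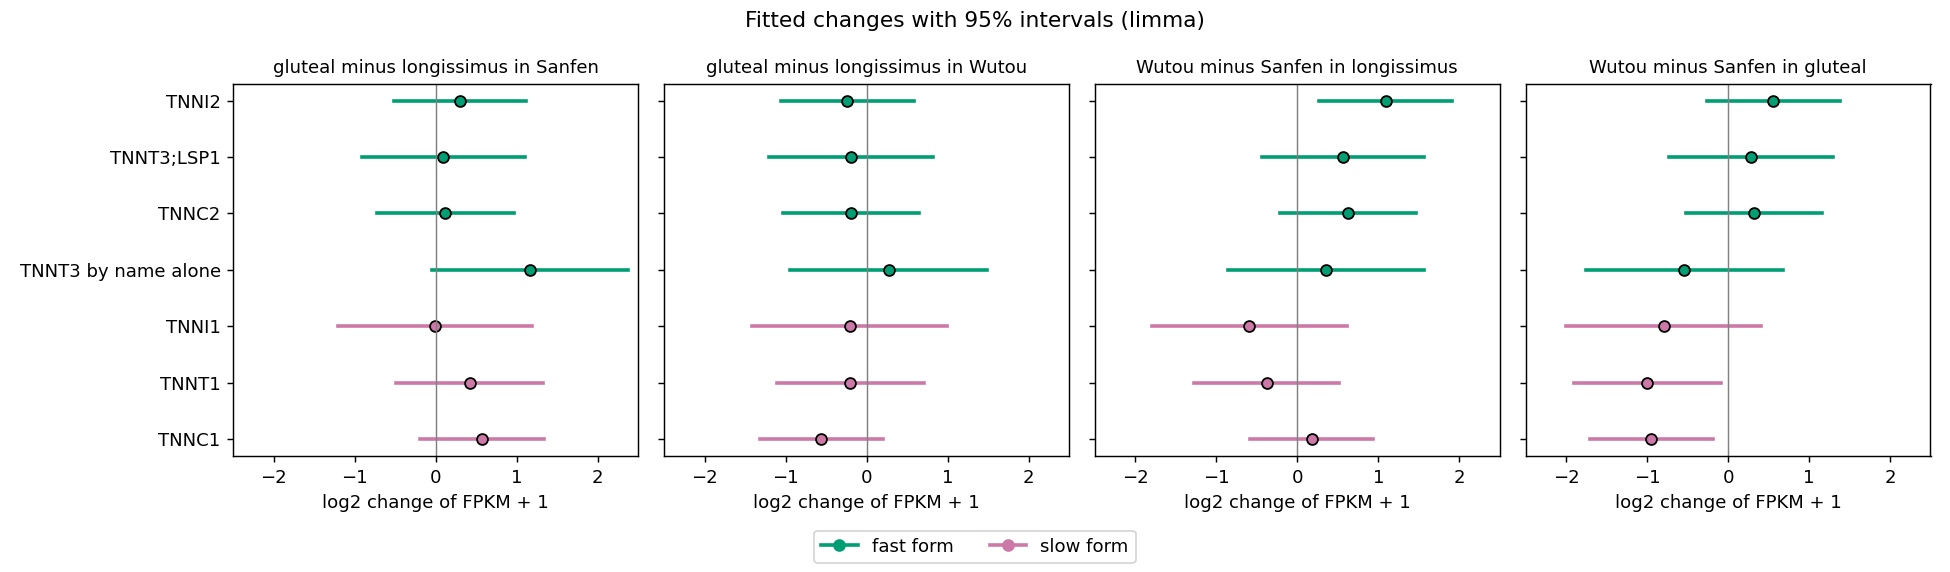
Fitted log2 change of FPKM + 1 (horizontal axis, points) with 95% intervals (lines) for the troponin loci in 4 comparisons, from limma, with fast and slow forms in separate colours. The intervals that leave out 0 are those of TNNI2 in longissimus (Wutou minus Sanfen, 1.09) and of TNNT1 and TNNC1 in gluteal muscle (Wutou minus Sanfen, -1.0 and -0.95), and none passed an adjusted p of 0.05.

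Averaged over muscles, TNNI2 had a log2 change of 0.83 between Wutou and Sanfen (95% interval 0.17 to 1.48, unadjusted p = 0.0184, limma adjusted p = 0.793) and TNNT1 one of -0.69 (-1.44 to 0.06). Without both libraries that stood apart these were 0.47 for TNNI2 and -0.29 for TNNT1. The interaction of muscle and strain for TNNC1, the change between muscles in Wutou minus that in Sanfen, was -1.13 (95% interval -2.21 to -0.06, unadjusted p = 0.0408, limma adjusted p = 1.0), and -0.84 without both libraries. No member was called in either test, against 0% of all loci in the average and 0.00806% in the interaction. An unadjusted p under 0.05 was reached by 1 of 6 members in each, against 5.97% of all loci in the average and 2.60% in the interaction. The comparisons within muscles share their libraries with the average and the interaction.

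Other fibre genes were read beside the troponins. In longissimus, 9 of 9 other fast fibre genes had a fitted change above 0 between Wutou and Sanfen (median log2 change 0.47), against 40.7% of all loci (median -0.06), none of them called. Without both libraries all 9 still did, against 45.2% of all loci, and their median was 0.24. The least abundant of the 9 had at most 1.93 FPKM in any library. All FPKM of a library summed to 265498 to 319767 in Wutou longissimus and to 231193 to 258793 in Sanfen longissimus, without rescaling. The part of these sums in the changes of TNNI2 and the fast fibre genes was not tested. ACTN3, the alpha-actinin of fast fibres, had 363, 389 and 366 FPKM in Wutou, against 130.1, 179 and 270.0 FPKM in Sanfen, a log2 change of 1.01 (unadjusted p = 0.0187, limma adjusted p = 0.854) and 0.99 without both libraries. CASQ1, the fast fibre calcium store protein, had a log2 change of 0.62 (0.48 without both). Of 14 other slow fibre genes, 5 had a fitted change above 0 (median -0.17), and 8 without both libraries (median 0.06). ATP2A2, the slow fibre calcium pump, had a log2 change of -0.94 (-0.53 without both) and MYBPC1 one of -0.63 (-0.48 without both).

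In gluteal muscle 2 of 14 other slow fibre genes had a fitted change above 0 (median -0.43), with none called, against 34.2% of all loci (median -0.09). Without both libraries 3 did (median -0.12), against 40.8% of all loci (median -0.06). ATP2A2 had 137, 132 and 172 FPKM in Wutou, against 405, 279 and 276 FPKM in Sanfen, a log2 change of -1.10 (unadjusted p = 0.00621, limma adjusted p = 0.963) and -0.92 without both libraries. MYL2, the slow regulatory light chain, had a log2 change of -1.0 (-0.49 without both), and the essential light chain MYL3 had -0.86 (-0.69 without both). Of 9 other fast fibre genes, 5 had a change above 0 (median 0.17), and 6 without both libraries (median 0.08). No locus was matched by name to MYH7, the slow myosin heavy chain, or to the fast chains MYH4, MYH2 and MYH1, which are not used here.

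Among 17 thin filament partners 9 had a change above 0 in each muscle, against 40.7% of all loci in longissimus and 34.2% in gluteal muscle, with list medians of 0.02 in longissimus and 0.14 in gluteal muscle. Without both libraries 6 did in longissimus (median -0.07) and 12 in gluteal muscle (median 0.15). TPM3, the slow tropomyosin, had 73.1, 45.1 and 47.9 FPKM in Wutou gluteal muscle, against 286, 94.9 and 82.7 FPKM in Sanfen gluteal muscle, a log2 change of -1.26 (unadjusted p = 0.00966, limma adjusted p = 0.963) and -0.70 without both libraries. TPM1, the alpha tropomyosin, had a log2 change of 0.92 in longissimus, and 0.21 without both libraries. Of 23 regulators of fibre type tested, 8 had a change above 0 in longissimus (median -0.03) and 10 in gluteal muscle (median -0.15), against 40.7% of all loci in longissimus and 34.2% in gluteal muscle. Without both libraries 13 did in longissimus (median 0.08) and 10 in gluteal muscle (median -0.04). PROX1, a transcription factor of slow fibres, had a log2 change of -0.38 in gluteal muscle. Its levels there lay near the filter, at 0.614, 0.812 and 0.623 FPKM in Wutou and 1.02, 1.40 and 1.16 FPKM in Sanfen. It passed the filter mainly through Sanfen libraries, so its strain change is not weighed here. None of these passed the test.

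Markers of other cells were read beside these values, and none was called between strains in either muscle. The sum of 7 Schwann cell and nerve markers was 4.60 to 11.5 FPKM in Wutou gluteal, 5.90 to 9.23 FPKM in Wutou longissimus, 11.0 to 18.5 FPKM in Sanfen gluteal and 10.2 to 14.1 FPKM in Sanfen longissimus, and none of 4 tested genes had a fitted change above 0 in either muscle. The sum of 9 tendon and fibroblast markers was 111 to 214 FPKM in Wutou gluteal, 116 to 163 FPKM in Wutou longissimus, 147 to 292 FPKM in Sanfen gluteal and 154 to 224 FPKM in Sanfen longissimus, with 3 of 8 tested genes above 0 in gluteal muscle, near the share of all loci, and 1 of 8 in longissimus. The 8 include COMP, which reached 1 FPKM only in Sanfen libraries and was at most 0.157 FPKM in Wutou. It passed the filter through Sanfen alone, so its strain change is not weighed here. FMOD had the smallest p of this list in both muscles. Its log2 change was -2.30 in longissimus (unadjusted p = 3.15e-05, limma adjusted p = 0.0977) and -1.03 in gluteal muscle. The 4 satellite cell and regenerating fibre markers summed to 2.10 to 5.77 FPKM in Wutou gluteal, 2.37 to 3.19 FPKM in Wutou longissimus, 4.37 to 7.41 FPKM in Sanfen gluteal and 4.31 to 12.4 FPKM in Sanfen longissimus. The sums of adipocyte markers (19.2 to 54.7 FPKM over all libraries), endothelial markers (44.3 to 82.1 FPKM), smooth muscle markers (59.2 to 139 FPKM) and macrophage and leukocyte markers overlapped between the strains in both muscles. No marker found in the table was at 0 in all libraries, and the part of these cells in the strain values of the troponins was not tested.

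Across libraries TNNI2, TNNC2 and the merged TNNT3 locus varied together, and so did the slow genes, whereas the TNNT3 locus by name did not follow the fast loci. These are correlations of log2(FPKM + 1) over 12 libraries that may share animals and whose FPKM have a common denominator within a library, so they are descriptions. Pearson's r was 0.931 between TNNI2 and TNNC2, 0.945 between TNNC2 and the merged TNNT3 locus, 0.841 between TNNI1 and TNNT1 and 0.805 between TNNT1 and TNNC1. Without both libraries that stood apart these were 0.621, 0.615, 0.726 and 0.765, and r between TNNI2 and the merged locus was 0.377, against 0.884 with all libraries. The TNNT3 locus by name had r of 0.0741 with TNNI2, 0.0199 with TNNC2 and -0.0453 with the merged locus. Between fast and slow forms r was -0.747 for TNNI2 with TNNI1, -0.671 for the merged locus with TNNT1 and -0.305 for TNNC2 with TNNC1. Without both libraries it was 0.0644, 0.0709 and 0.236, so the size of the negative values depends on those libraries. Both were chosen after their extreme fibre gene values were seen, which favours a weaker r without them. Spearman's rho over all 12 libraries was -0.392, -0.280 and -0.0559 for the same pairs.

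**Figure D5:**
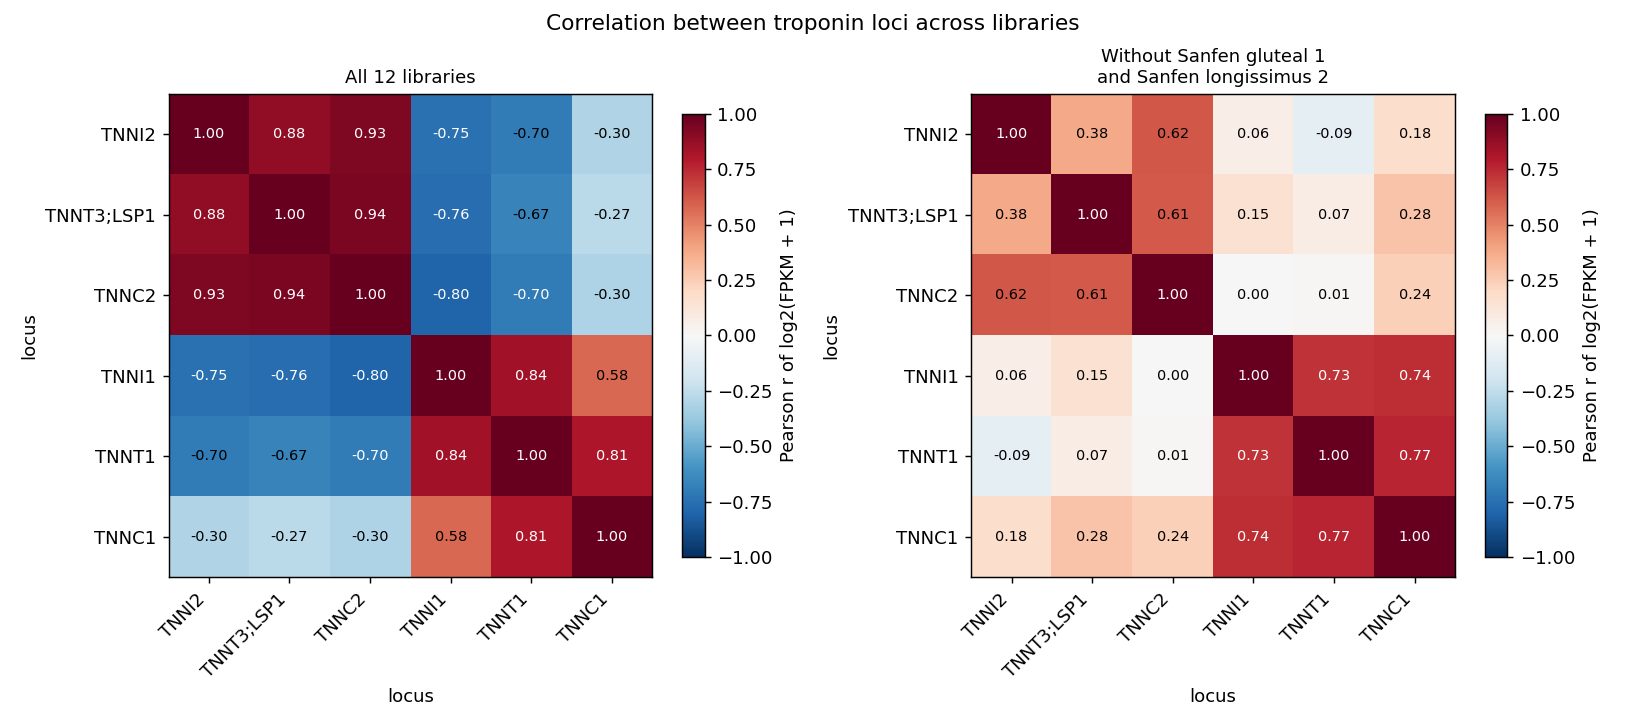
Pearson's r of log2(FPKM + 1) between 6 troponin loci (both axes) over all 12 libraries (left) and without the first Sanfen gluteal and second Sanfen longissimus libraries (right), with colour and printed number for r. The block of fast loci (TNNI2, TNNC2 and the merged TNNT3 locus, without the TNNT3 locus by name) and the block of slow loci keep positive values, while the negative values between blocks on the left, such as -0.747 for TNNI2 with TNNI1, are near 0 or positive on the right.

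The genes whose levels ran most like each member were sought among 2153 or 2154 other loci with a reference gene symbol and a mean of at least 5 FPKM, by Pearson's r over the 12 libraries. For TNNI2 they were ATP2C1 (0.889), TPM1 (0.886) and AK1 (0.886), and for TNNC2 CHCHD1 (0.917), PEBP4 (0.890) and TPM1 (0.889). The merged TNNT3 locus ran closest to TPM1 (0.960), PEBP4 (0.932) and MYL1, the fast essential light chain (0.926), while the TNNT3 locus by name ran closest to GRHPR (0.812), CCDC6 (0.797) and MPC1 (0.756). TPM1 stood among the first 3 for TNNI2, TNNC2 and the merged locus.

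TNNT1 ran closest to HK1 (0.910), MYL2 (0.877) and USP5 (0.874), TNNI1 to UBAP2 (0.883), FGFRL1 (0.878) and DCTN1 (0.877), and TNNC1 to GPX4 (0.870), NONO (0.866) and BRK1 (0.837). Among the 50 closest loci, TNNI2 and TNNC2 each held the other, TNNI1 held TNNT1, TNNT1 held TNNI1 and TNNC1, and TNNC1 held TNNT1. The TNNT3 locus by name held no other member. Leaving out the pair of libraries farthest from the member's median, r for these 3 genes was 0.536 to 0.840 for TNNI2, 0.494 to 0.617 for TNNC2, 0.736 to 0.857 for the merged locus, 0.618 to 0.733 for the TNNT3 locus by name, 0.662 to 0.692 for TNNI1, 0.669 to 0.852 for TNNT1 and 0.783 to 0.874 for TNNC1.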

How the data were processed

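RNA had been taken up with Trizol from frozen muscle and sequenced on Illumina libraries, per the labels' protocols. Per the submitters' processing notes, the tools included TopHat2, Bowtie2 and cutadapt, with versions and genome build not stated there. The authors deposited FPKM for each locus, and no rescaling between libraries is recorded. RefSeq (EquAss-T2T_v2) was used only for gene names, transcript matches and neighbouring genes.

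Tested loci reached 1 FPKM in 3 or more libraries (12408 of 27084). limma 3.58.1 in R 4.3.3 was run on log2(FPKM + 1), with 1 model of 4 groups over all 12 libraries, a variance trend on intensity and p adjusted over all tested loci by Benjamini-Hochberg, called at 0.05. This scale draws low values together and understates their changes. For the strain average over muscles, libraries of a strain with the same number formed a random block (statmod 1.5.0, consensus correlation 0.188). On simulated data for the strain comparison in longissimus (12408 loci, 200 changed), 46% were recovered at a log2 change of 1 and 81% at a log2 change of 2, with 7 false calls. The changed loci were drawn only from the more abundant loci, with noise independent between libraries. Recovery at low loci such as the TNNT3 locus by name, or with shared animals, was not simulated. The 200 planted changes ease the Benjamini-Hochberg threshold, whereas 0.0161% of loci were called in the real comparison. Recovery of a member there may thus be lower.

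The members and gene lists were chosen with earlier results of these data known. Besides the members, up to 4 genes of each list with the smallest p and the 3 genes most like each member could be named. Genes of cell marker lists are given as sums, apart from those named after their values were seen. These are ACTA1, C1QB, PTPRC, PLIN4, FABP4, FMOD, COMP, THBS4, CHRNA1, NCAM1, MYF5 and CHRNG. Same-numbered libraries of the 2 muscles had deviations correlated at 0.246, 0.11 and 0.158 in Sanfen, all above the limit of 0.1, and at 0.182, 0.165 and 0.0711 in Wutou. No label states the Sanfen pairing, which rests on these values. Alternatives were another pseudocount (0.1), filters (none or an FPKM of 5), scalings, array weights, an unadjusted p, the replicate block, fits on the compared libraries alone, each library left out, and, chosen after seeing the data, both libraries that stand apart left out (for members and gene lists) and TNNT3 taken from the merged locus. Figures were drawn with matplotlib 3.10.9 and tables made with pandas 2.3.3, in Python 3.11.15.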

Additional observations from a re-analysis of the deposited data

How the results depend on the processing

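No troponin member passed an adjusted p of 0.05 in any of the 7 comparisons under any alternative that kept the adjustment, and the smallest adjusted p was 0.517. With the replicate block the count of called members was 0 in every comparison it could be fitted to. With an unadjusted p under 0.05 the count was 1 for strain in longissimus, 2 for strain in gluteal muscle, 1 for strain averaged over muscles and 1 for the interaction. Over all loci, 0 to 7 were called under these alternatives, against 0 to 3 as reported.

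Of 671 alternative log2 changes, 33 had the other sign, in 14 of 31 results, none of them called, and the cause was not tested. For gluteal against longissimus in Sanfen, TNNC2 had -0.002 with median-of-ratios scaling, -0.11 with array weights and -0.17 without both libraries that stand apart. The merged TNNT3 locus had -0.03, -0.25 and -0.28 under the same settings, and TNNI1 had 0.30 with array weights and 0.49 without both libraries. In Wutou, quantile normalization gave 0.19 for TNNC2, 0.05 for TNNT1 and 0.02 for the merged locus, and TNNT3 had -0.02 with array weights and -0.19 with its loci summed. Between strains, TNNT3 in gluteal muscle had 0.28 with loci summed, and TNNC1 in longissimus -0.04 with quantile normalization. Without both libraries, longissimus values were 0.14 for TNNI1, 0.02 for TNNT1 and -0.06 for the merged locus.

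Leaving out each library in turn, the ranges that crossed 0 in Sanfen muscle were -0.17 to 0.63 for TNNI2, -0.39 to 0.39 for TNNC2, -0.47 to 0.73 for TNNI1 and -0.53 to 0.51 for the merged locus. In Wutou they were -0.11 to 0.80 for TNNT3 and -0.43 to 0.18 for TNNI1. For strain in longissimus they were -1.05 to 0.14 for TNNI1, -0.74 to 0.02 for TNNT1, -0.09 to 0.46 for TNNC1 and -0.06 to 0.98 for the merged locus, and in gluteal muscle -1.05 to 0.01 for TNNT3. The strain change of TNNI2 in longissimus stayed at 0.62 to 1.43, and in gluteal muscle those of TNNI1, TNNT1 and TNNC1 stayed at -0.99 to -0.56, -1.28 to -0.63 and -1.18 to -0.59.

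The fast share depends on how subunits are weighted. As an unweighted mean of the 3 subunits it was 64.4% in Wutou gluteal, 63.8% in Wutou longissimus, 60.9% in Sanfen gluteal and 61.0% in Sanfen longissimus. This mean takes troponin T from the TNNT3 locus by name, whose share against TNNT1 was at most 0.697% in any library. With TNNT3 from the merged locus the unweighted mean was 81.9% in Wutou gluteal, 81.2% in Wutou longissimus, 71.9% in Sanfen gluteal and 74.4% in Sanfen longissimus. For the fast share of summed FPKM, leaving out each library gave 91.2 to 92.5% in Wutou gluteal and 89.1 to 91.9% in Wutou longissimus. That share was then 76.2 to 86.8% in Sanfen gluteal and 77.1 to 90.1% in Sanfen longissimus. Read depth is unknown, and 3 libraries a group limit each comparison.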
